A study of Mus musculus with 8 samples.

Results

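The genes described here encode 10 integrin chains known from leukocytes: the α chains Itga4, Itga5, Itga6, Itgal, Itgam, Itgae and Itgav, and the β chains Itgb1, Itgb2 and Itgb7. They were found by gene name among the non-control probes of the arrays, where 18 of 55681 probes carry one of these names, and they make up 10 of the 36088 features. Each gene was read from its brightest probe, called the main probe below, and its other probes were read beside it. The levels come from 4 arrays of Sca-1+ and 4 arrays of Sca-1- plasmacytoid dendritic cells (pDC, written PDC in the labels). All of them were cells of female BALB/c mice, grown from bone marrow precursors in vitro with mFlt3-L and isolated by magnetic and flow cytometric sorting. The labels give no age of the mice, no treatment of the sorted cells and no genetic change: Sca-1+ and Sca-1- are sorted fractions of the same culture system. The study set these fractions side by side as stages of pDC development.

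Integrins are pairs of 1 α and 1 β chain that span the cell membrane, bind matrix proteins or other cells outside, and are tied through talin and kindlin to the actin skeleton inside. On leukocytes the α4 chain pairs with β1 or β7 and binds VCAM-1 and MAdCAM-1, whereas αL and αM pair with β2 and bind ICAMs. αE pairs with β7 and binds E-cadherin, while α5, α6 and αV are receptors for fibronectin, laminins and RGD-containing ligands. Which pairs form depends on protein, which arrays do not measure.

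A level below is the log2 signal of a probe relative to the 75th percentile of signal on its array, so 1 unit is a doubling. Levels of different probes are not on a common scale and are not ranked. Ly6a, which encodes Sca-1, had levels of 7.17 to 7.82 on the Sca-1+ arrays, against 2.21 to 3.14 on the Sca-1- arrays. All 13 pDC markers examined, among them Siglech and Bst2, were well above background on all 8 arrays. Between 45.9% and 54.9% of the non-control spots of an array were well above background. Per the file headers, both samples of a replicate number lay on the same slide, and replicate 4 was scanned on another day with another extraction protocol version. Replicate 4 stands apart for the main probes of several integrins and for basophil and mast cell markers, so values without it are given beside the calls. All 4 slides carried Sca-1+ cells at array position 2 and Sca-1- cells at array position 1, so position and group cannot be told apart.

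Itga4, Itgal and Itgae were higher in Sca-1+ than in Sca-1- pDC within each of the 4 replicate numbers, by 1.42-fold, 1.49-fold and 1.96-fold on average. The β chains Itgb1, Itgb2 and Itgb7 did not pass the test in either fit, and neither did the α chains Itga6, Itgam and Itgav. Of these, Itgb2 and the main probes of Itga6 and Itgam were also higher within each of the 4 replicate numbers. In limma without pairing, 0 of the 9 tested members had a Benjamini-Hochberg adjusted p under 0.05, where 1.71% of all 19810 tested features did (0.126% as higher and 1.59% as lower in Sca-1+). Of the 9, 1 had an unadjusted p under 0.05 (Itga4), higher in Sca-1+, against 8.96% of all tested features in either direction and 3.12% as higher. With the replicate number as a block, 3 of 9 passed, all higher in Sca-1+, where 6.22% of tested features passed, 2.10% as higher and 4.12% as lower. The tenth member, Itga5, was too dim to be tested. In bulk RNA, fewer cells that express a gene and less RNA per cell cannot be told apart.

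The median difference of the 9 tested members, Sca-1+ minus Sca-1-, was 0.31, beside a median of 0.03 over all tested features with quartiles of -0.12 and 0.17. This median is the value of the main Itgam probe, a gene given no direction below. It was smaller with the other probes of Itga6 and Itgam. In 6 of the 9 the difference was positive within all 4 replicate numbers, which held for 18.4% of tested features in that direction and for 36.2% in either. In 0 of the 9 it was negative in all 4, beside 17.8% of tested features. These counts use main probes, and the 6 include Itga6 and Itgam, each with another probe that was lower in Sca-1+ within all 4 replicate numbers. In none of the 10 did the levels of the main probe separate the groups without overlap, as they did for 6.95% of tested features (1.91% with Sca-1+ higher and 5.03% with Sca-1+ lower). Slides differed as well: the mean of both samples of a slide varied between slides by 0.30 for Itgb7 up to 1.90 for Itgae. With the arrays of replicate 4 left out in both groups, 2 of 9 members passed in the paired fit (Itgal and Itgae). Without replicate 2 it was 1 (Itgae), and without replicate 1 or replicate 3 it was 0. Over all tested features, 941 passed without replicate 4, 556 without replicate 2, 429 without replicate 1 and 292 without replicate 3, against 1232 with all samples, so calls were lost across the array as well.

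**Figure D1:**
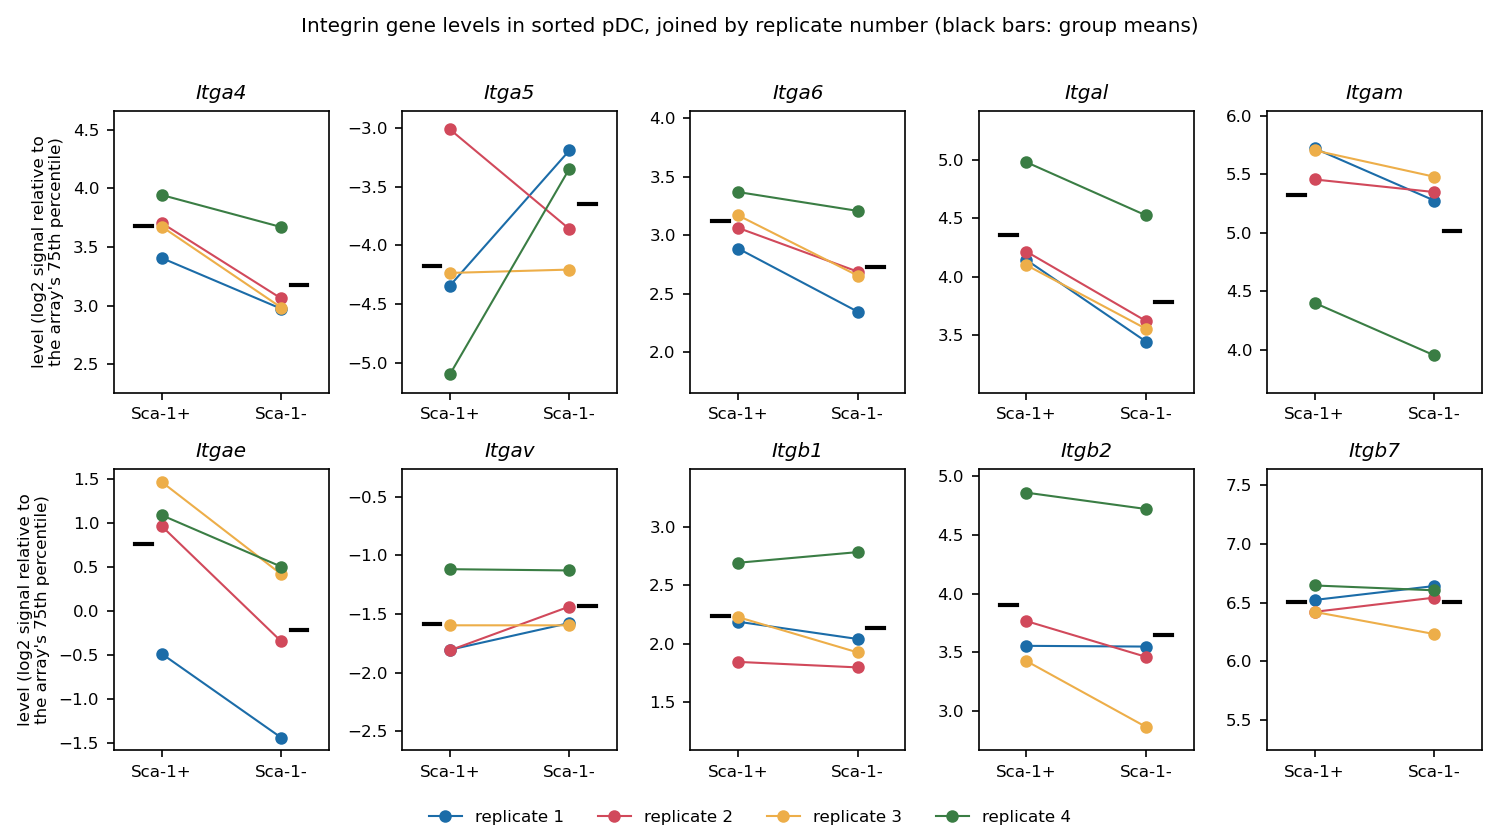
Levels of the 10 integrin genes by sample, as log2 signal relative to the array's 75th percentile. Each line joins the Sca-1+ and Sca-1- sample of a replicate number and black bars are group means; for Itga4, Itgal and Itgae the Sca-1+ end is the higher one in all 4 replicate numbers, while the lines of Itgb7 and Itgav run both ways.

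**Figure D2:**
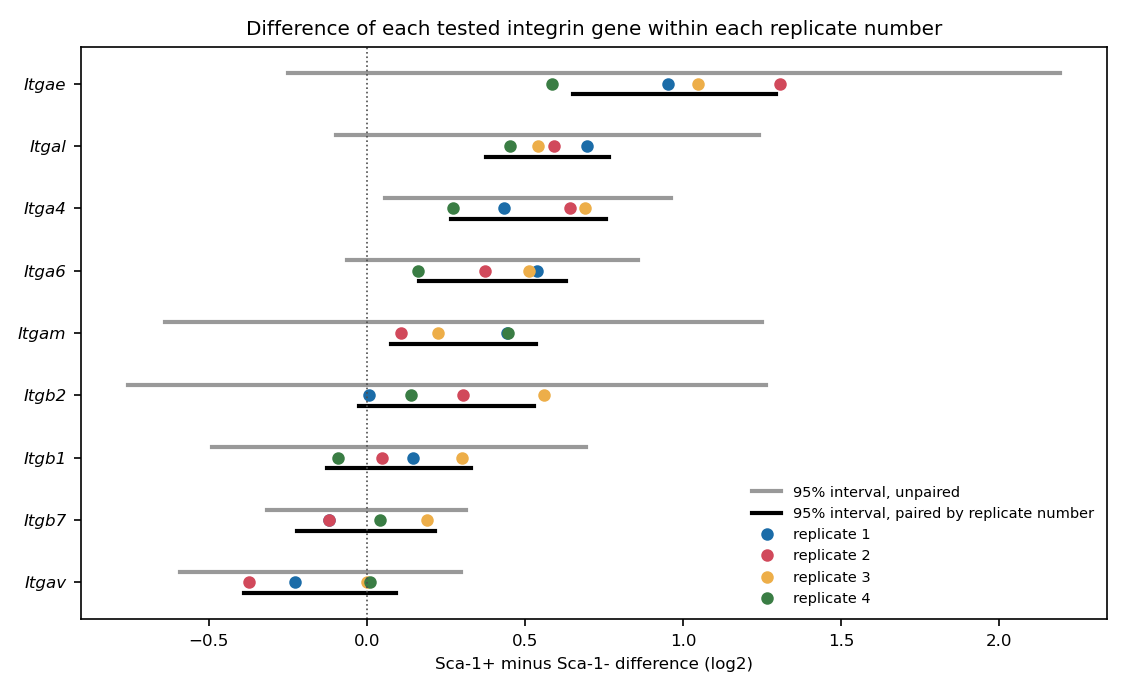
Sca-1+ minus Sca-1- difference (log2) of each tested member, with a point per replicate number and 95% intervals without pairing (grey) and paired by replicate number (black). The paired intervals of Itgae, Itgal and Itga4, which passed the adjusted test, lie above 0, as do those of Itga6 and Itgam, which did not pass, while those of Itgb2, Itgb1, Itgb7 and Itgav include 0.

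Itgae encodes αE, known as CD103, which with β7 binds E-cadherin on epithelial cells and marks subsets of conventional dendritic cells and of tissue T cells. Its level was -0.49, 0.96, 1.46 and 1.08 in Sca-1+ replicates 1 to 4, against -1.44, -0.35, 0.42 and 0.50 in Sca-1- replicates 1 to 4. The groups overlap because replicate 1 was the lowest in both, but each Sca-1+ sample lay above the Sca-1- sample of its number. The differences within replicates 1 to 4 were 0.95, 1.31, 1.05 and 0.58. Without pairing the difference of 0.97 ± 0.53 (SE, n = 4 each) did not pass (limma, adjusted p = 0.745), while with the replicate block its SE was 0.13 and it passed (limma, adjusted p = 0.0162). Without replicate 4 the paired difference was 1.10 (limma, adjusted p = 0.0171). Leaving out replicate 1 or replicate 3 ended the paired call (limma, adjusted p = 0.0764 and 0.110).

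The single Itgae probe covers bases of its transcript that lie 986 bases apart from end to end on the genome, chr11:72945236-72946221 (mm9, plus strand), so its 60 bases join at least 2 exons. It is shown because the whole Itgae result rests on it, and no letters are marked by capitals.
Itgae probe: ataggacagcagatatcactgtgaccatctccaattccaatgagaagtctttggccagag

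Markers of conventional dendritic cells, some of which carry CD103, were read beside Itgae. Of 11 such markers, 8 were tested, 0 passed without pairing, and with the block Sirpa was higher (0.54, limma, adjusted p = 0.0420) and Zbtb46 lower (-1.20, limma, adjusted p = 0.0131) in Sca-1+ pDC. With the block, 6.22% of all tested features passed. Zbtb46 is a transcription factor of conventional dendritic cells, and Sirpa marks one of their subsets but is also found on pDC. The summed linear signal of the 11 markers, in multiples of the array's 75th percentile, was 39.0 to 49.1 in Sca-1+ and 27.3 to 40.4 in Sca-1- samples. Xcr1, which marks the subset of conventional dendritic cells that carries CD103, did not rise well above background on a single array. Clec9a, found on that subset and on pDC, differed by 0.42 and passed in neither fit (limma, paired adjusted p = 0.0796). The part of such cells in the Itgae difference was not tested.

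Itgb7, the partner of αE and of α4, was measured at 6.52, 6.42, 6.42 and 6.65 in Sca-1+ replicates 1 to 4, against 6.64, 6.54, 6.23 and 6.60 in Sca-1- replicates 1 to 4. The ranges overlap almost entirely, and the gene was higher in Sca-1+ in 2 of the 4 replicate numbers. The difference was -0.0024 ± 0.14 (SE), with a 95% interval of -0.32 to 0.31 without pairing and of -0.22 to 0.22 with it (limma, adjusted p = 1.00 and 0.990). Of the members, Itgb7 also varied least between slides. Its single probe lies at chr15:102046450-102046509 (mm9, minus strand).

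Itga4 encodes α4, the chain that with β1 or β7 lets leukocytes roll and arrest on VCAM-1 and MAdCAM-1. The main probe read 3.41, 3.70, 3.67 and 3.94 in Sca-1+ replicates 1 to 4, against 2.97, 3.06, 2.98 and 3.67 in Sca-1- replicates 1 to 4. Only the Sca-1- sample of replicate 4 reached into the Sca-1+ range. The differences within replicates 1 to 4 were 0.43, 0.64, 0.69 and 0.27. Their mean of 0.51 ± 0.20 (SE, n = 4 each) did not pass without pairing (limma, adjusted p = 0.449), and it passed narrowly with the replicate block (SE 0.10, limma, adjusted p = 0.0446). In each of the 4 fits that left out a replicate number the paired call was lost, with limma adjusted p-values of 0.0606 to 0.189.

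The second Itga4 probe starts at base 2292 of the transcript, against base 9754 for the main probe, and spans 1131 bases of the genome, chr2:79153985-79155115 (mm9, plus strand), so that it too joins exons. It is printed because it reads the same gene far from the main probe, and no letters are marked by capitals.
Itga4 second probe: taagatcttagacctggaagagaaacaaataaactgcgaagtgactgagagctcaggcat
This probe read -0.76, -0.95, -0.69 and -1.23 in Sca-1+ replicates 1 to 4, against -1.52, -1.81, -1.16 and -1.58 in Sca-1- replicates 1 to 4. Here too each Sca-1+ sample exceeded the Sca-1- sample of its number, and the groups overlapped slightly. The difference of 0.61 was close to that of the main probe and passed in the paired fit over all 26988 tested probes (limma, adjusted p = 0.0468), where the main probe missed the threshold (limma, adjusted p = 0.0527).

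Itgb1, the β chain shared by α4, α5, α6 and αV, had levels of 2.19, 1.84, 2.23 and 2.69 in Sca-1+ replicates 1 to 4, against 2.04, 1.80, 1.93 and 2.78 in Sca-1- replicates 1 to 4. The groups overlapped over most of their range, and on this main probe replicate 4 was highest in both. The difference was 0.10 ± 0.26 (SE), with a paired 95% interval of -0.13 to 0.33 (limma, paired adjusted p = 0.548), and the second Itgb1 probe differed by -0.01. On that second probe replicate 4 was the lowest of each group, at 0.13 in Sca-1+ and 0.30 in Sca-1- pDC. The main probe spans 5896 bases of the genome, chr8:131250081-131255976 (mm9, plus strand), and so joins exons.

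Itgal encodes αL, which with β2 forms LFA-1, the receptor for ICAMs in contacts between leukocytes and with vessel walls. Its main probe read 4.14, 4.22, 4.10 and 4.98 in Sca-1+ replicates 1 to 4, against 3.45, 3.62, 3.56 and 4.52 in Sca-1- replicates 1 to 4. In replicates 1 to 3 every Sca-1+ sample lay above every Sca-1- sample, and replicate 4 was higher than the rest in both groups. The differences within replicates 1 to 4, at 0.70, 0.59, 0.54 and 0.45, were the most even of the 10 genes. The mean difference was 0.57 ± 0.29 (SE, n = 4 each) without pairing (limma, adjusted p = 0.697), and its SE was 0.08 with the replicate block (limma, adjusted p = 0.0181). Without replicate 4 the paired difference was 0.61 (limma, adjusted p = 0.0475). Leaving out replicate 1, 2 or 3 gave limma adjusted p-values of 0.0709, 0.0640 and 0.111.

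All 3 Itgal probes gave the same direction. The main probe lies at chr7:134477064-134477123 and the second one at chr7:134477160-134477219 (mm9, plus strand), shortly after the end of the first, so both read nearly the same stretch. The one left was designed to another cDNA and lies upstream of both at chr7:134474711-134474767. These 2 probes differed by 0.69 and 0.49, and both passed in the paired fit over probes (limma, adjusted p = 0.0256 and 0.0472). The upstream probe read 1.54, 1.48, 1.32 and 1.11 in Sca-1+ replicates 1 to 4, against 0.84, 0.97, 1.01 and 0.65 in Sca-1- replicates 1 to 4. On this probe the groups did not overlap, and replicate 4 was the lowest sample of each group, not the highest. The main probe is printed because it carries the Itgal values above, with no letters marked by capitals.
Itgal main probe: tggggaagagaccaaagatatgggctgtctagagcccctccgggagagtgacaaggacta

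Itgb2, the β chain that αL and αM need to reach the surface, read 3.55, 3.77, 3.43 and 4.86 in Sca-1+ replicates 1 to 4, against 3.55, 3.46, 2.86 and 4.72 in Sca-1- replicates 1 to 4. Replicate 4 was more than 1 unit above the other samples in both groups, and the groups overlapped. The gene was higher in Sca-1+ in all 4 replicate numbers, by 0.01, 0.30, 0.56 and 0.14. The mean of 0.25 ± 0.44 (SE) did not pass without pairing or with it, where the 95% interval was -0.02 to 0.53 (limma, adjusted p = 1.00 and 0.238).

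Itgam encodes αM (CD11b), which with β2 forms Mac-1, a receptor for complement and fibrinogen that is abundant on myeloid cells and low on pDC. Its main probe read 5.72, 5.46, 5.70 and 4.40 in Sca-1+ replicates 1 to 4, against 5.28, 5.35, 5.48 and 3.96 in Sca-1- replicates 1 to 4. Replicate 4 lay more than 1 unit below the others in both groups. The difference of 0.31 ± 0.41 (SE) passed in neither fit (limma, adjusted p = 1.00, and 0.120 with the replicate block). A second probe, at transcript base 3410, read -2.18, -1.73, -2.16 and -1.74 in Sca-1+ replicates 1 to 4, against -1.55, -1.32, -1.63 and -1.33 in Sca-1- replicates 1 to 4. On it each Sca-1+ sample lay below each Sca-1- sample, and the differences within replicates 1 to 4 were -0.63, -0.41, -0.53 and -0.41. Its mean difference of -0.49 passed in the paired fit over probes (limma, adjusted p = 0.0358) and not without pairing (limma, adjusted p = 0.348). The remaining probe, at transcript base 270, was dim in 1 Sca-1+ sample, lay well above background on the 7 other arrays and differed by -0.01.

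The sequences of both Itgam probes are shown because they differ in kind. The main probe, at chr7:135261755-135261814 (mm9, plus strand), opens with a run of 20 bases of alternating C and A, in capitals in the first 30 of its 60 bases. The probe at base 3410, at chr7:135260275-135260334, holds no such run.
Itgam main probe, first 30 bases: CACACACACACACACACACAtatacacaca
Itgam probe at base 3410: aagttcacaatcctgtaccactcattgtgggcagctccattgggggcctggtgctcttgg

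The values of the main Itgam probe were set beside those of the other 23 probes on the array whose printed sequence holds CA or AC repeated 10 times, each named for a different gene or transcript. All 23 were well above background on all 8 arrays, as were 42.2% of all probes. All 23 had a positive mean difference, with a median of 0.30 and quartiles of 0.28 and 0.36, beside 0.31 for the Itgam probe. Their median differences within replicates 1 to 4 were 0.57, -0.12, 0.32 and 0.48, and those of the Itgam probe were 0.44, 0.11, 0.22 and 0.45. From slides 1 to 3 to slide 4 their level changed by a median of -0.92 (-1.49 to -0.27), and that of the Itgam probe by -1.32. The 52 probes with the opposite repeat, TG or GT repeated 10 times, had a median difference of -0.02. In replicate 2 the Itgam probe and the median of the repeat probes had opposite signs. These repeat probes were chosen after values were seen, and the part of the repeat in the Itgam values was not tested. Since its probes differ in sign, Itgam is given no direction here.

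**Figure D3:**
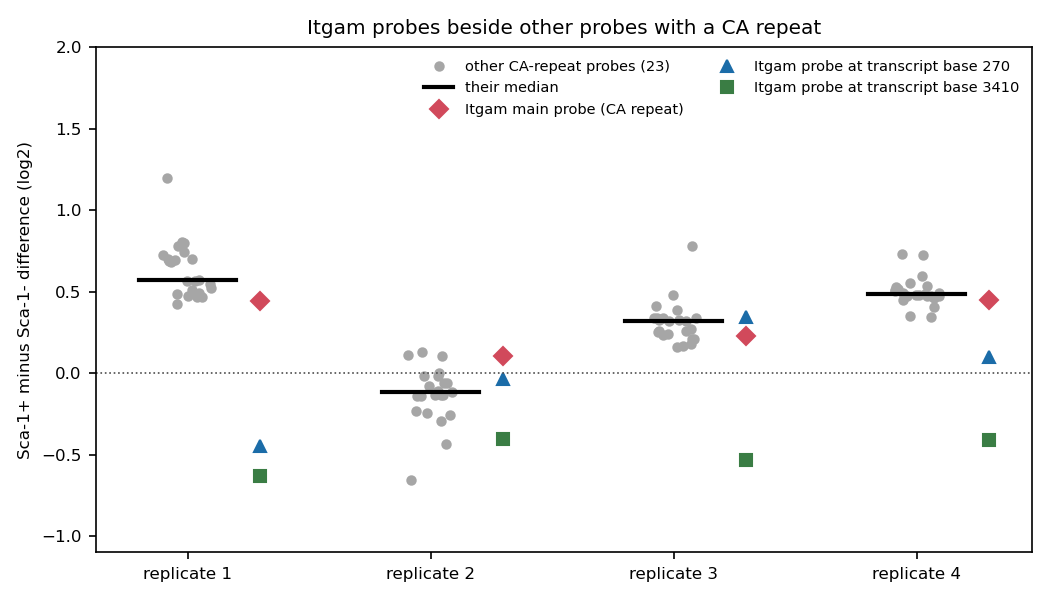
Sca-1+ minus Sca-1- difference (log2) within each replicate number for the 3 Itgam probes and the 23 other probes with a CA repeat (grey, median as a black bar). The main Itgam probe lies within the span of the grey points in all 4 replicate numbers, and the probe at transcript base 3410 lies below 0 in all 4.

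Markers of cells in which Itgam is abundant were read beside it. Of 11 monocyte and macrophage markers, 5 were tested and 0 passed in either fit, and Mertk and C5ar1 were not well above background on any array. Their summed linear signal was 50.2 to 71.4 times the array's 75th percentile in Sca-1+ and 39.0 to 71.9 times in Sca-1- samples. Of 10 neutrophil markers, 5 were tested and 0 passed in either fit, with sums of 2.80 to 10.3 in Sca-1+ and 3.94 to 12.3 in Sca-1- samples. The part of such cells in the Itgam values was not tested.

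Itga6 encodes α6, a laminin receptor with β1 or β4 that is also carried by early blood-forming cells. Its main probe read 2.89, 3.06, 3.17 and 3.37 in Sca-1+ replicates 1 to 4, against 2.35, 2.69, 2.66 and 3.21 in Sca-1- replicates 1 to 4. Each Sca-1+ sample lay above the Sca-1- sample of its number, and the Sca-1- sample of replicate 4 reached into the Sca-1+ range. The difference of 0.40 ± 0.20 (SE, n = 4 each) passed in neither fit (limma, adjusted p = 0.692, and 0.0710 with the replicate block). A second probe, designed to the RefSeq mRNA, read -0.85, -0.91, -0.83 and -1.29 in Sca-1+ replicates 1 to 4, against 0.07, -0.50, -0.36 and -0.34 in Sca-1- replicates 1 to 4. On this probe all 4 Sca-1+ samples lay below all 4 Sca-1- samples, opposite to the main probe. Its difference of -0.69 passed in the paired fit over probes (limma, adjusted p = 0.0454) and not without pairing (limma, adjusted p = 0.156).

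The main Itga6 probe was designed to an Ensembl transcript, at chr2:71690633-71690692 (mm9, plus strand), and carries the name Itga6 in the 2 files of slide 4 but a transcript identifier in the 6 others. The second probe lies downstream at chr2:71694756-71694815. Both are printed because they disagree, the second as 30 of its 60 bases, with a GTT repeat in capitals.
Itga6 main probe: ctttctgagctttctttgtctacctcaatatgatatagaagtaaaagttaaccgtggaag
Itga6 second probe, 30 bases: aggtcttGTTGTTGTTGTTGTTctgacctt
The log2 ratio of the main over the second probe was 3.74 to 4.66 in Sca-1+ and 2.28 to 3.55 in Sca-1- samples, so the ranges did not overlap. The 8 probes with GTT repeated 5 times, the second Itga6 probe among them, had a median difference of 0.10. Which transcripts of the gene each probe reads was not analysed here. Of the 6 members with at least 2 tested probes, Itga6 and Itgam had probes that moved in opposite directions within all 4 replicate numbers, as did 43 of the 4975 genes with at least 2 tested probes (0.864%).

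**Figure D4:**
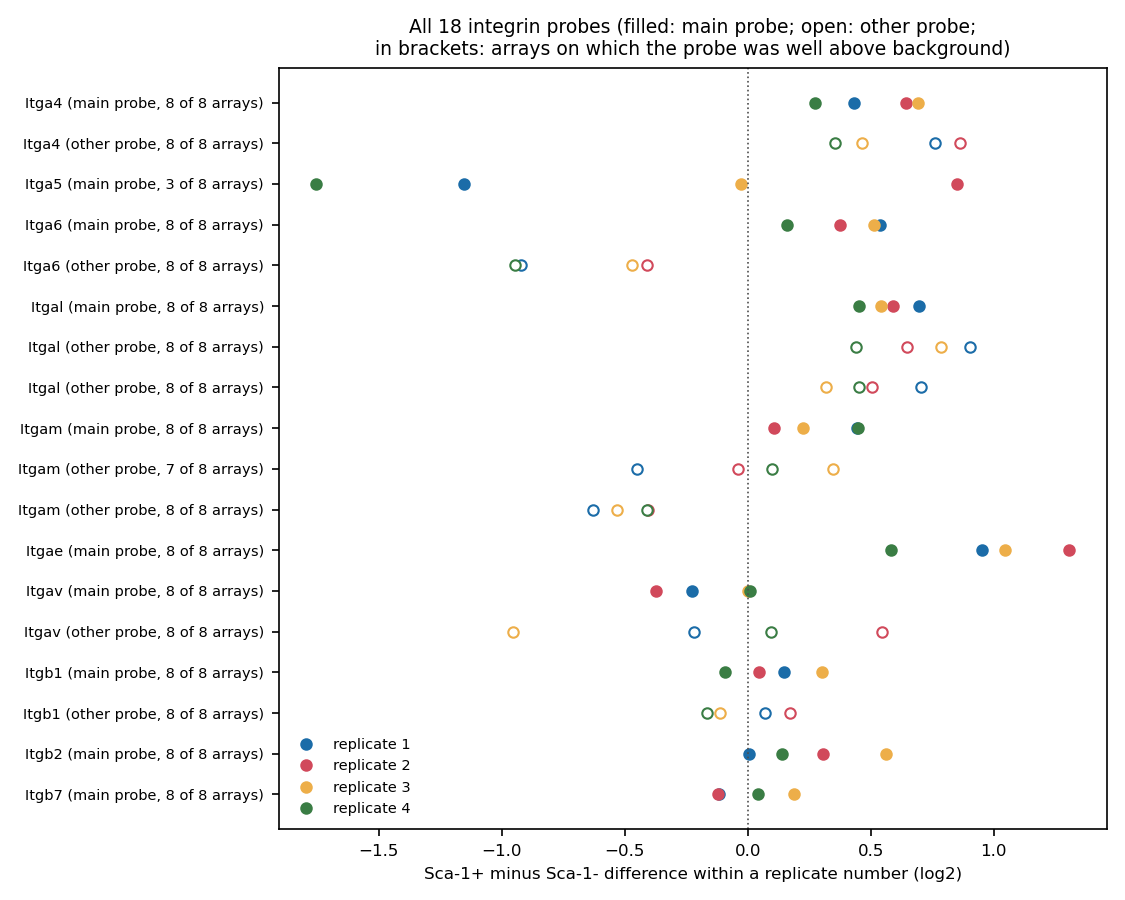
Sca-1+ minus Sca-1- difference (log2) within each replicate number for all 18 integrin probes, filled for the main probe of a gene and open for its others. The probes of Itga4 and of Itgal lie on the positive side in all 4 replicate numbers, and those of Itga6 and Itgam fall on both sides of 0.

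Itgav encodes αV, which with several β chains binds vitronectin, osteopontin and other RGD-containing proteins. Its main probe read -1.81, -1.81, -1.60 and -1.12 in Sca-1+ replicates 1 to 4, against -1.58, -1.44, -1.60 and -1.13 in Sca-1- replicates 1 to 4. The groups overlapped, and replicates 3 and 4 had nearly equal levels in both fractions. The difference of -0.15 ± 0.19 (SE) passed in neither fit, with a paired 95% interval of -0.39 to 0.09 (limma, paired adjusted p = 0.410), and the second probe differed by -0.13.

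Itga5 encodes α5, the fibronectin receptor chain. Its only probe cleared background well on 1 Sca-1+ and 2 Sca-1- arrays. It read -4.34, -3.01, -4.23 and -5.10 in Sca-1+ replicates 1 to 4, against -3.19, -3.86, -4.21 and -3.34 in Sca-1- replicates 1 to 4. These values scatter widely within each group and show no common direction within replicate numbers. No difference was detectable for Itga5 at this signal.

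The other 16 integrin genes were read as a group. Of these, 7 were tested, 6 were not well above background on any array (Itga2, Itga7, Itga8, Itga9, Itga11 and Itgb8), and 0 passed with limma without or with the block, while 1 had an unadjusted p under 0.05 (Itga10). The median difference of the 7 was -0.24. Itgax, the CD11c chain that marks dendritic cells, read 5.95, 6.13, 6.12 and 6.35 in Sca-1+ replicates 1 to 4, against 6.26, 6.41, 6.30 and 6.43 in Sca-1- replicates 1 to 4. It was lower in Sca-1+ in all 4 replicate numbers, by a difference of -0.21 that passed in neither fit (limma, adjusted p = 0.807, and 0.180 paired). Itgb3, a partner of αV, differed by -0.29 (limma, adjusted p = 0.730, and 0.0964 paired), and Itga10 and Itgb4, chains of a collagen receptor and a laminin receptor, by 0.33 and -0.38.

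Of 25 genes for integrin ligands, all on the array, 15 were tested. Where 1.71% of all tested features passed without pairing and 6.22% with it, 1 of the 15 did in both, lower in Sca-1+. This was Spp1, the gene of osteopontin, a secreted RGD-containing ligand of αV and α4 integrins. It read -5.64, -3.91, -5.77 and -5.91 in Sca-1+ replicates 1 to 4, against -1.28, -1.76, -1.46 and -2.50 in Sca-1- replicates 1 to 4. The groups did not overlap, as for 6.95% of all tested features (5.03% with Sca-1+ lower). Spp1 was well above background on all 4 Sca-1- arrays but on 0 of 4 Sca-1+ arrays. It therefore passed the filter only through the Sca-1- arrays, so that a difference was built into its being tested. It was at least 4.57-fold lower in Sca-1+ pDC, a bound set against the dimmest signals that count as well above background. The test was not of this bound but of the difference of the levels read, -3.56 (limma, adjusted p = 0.00812). The Sca-1+ levels in that difference were not well above background. With no filter on dim probes Spp1 passed as well. The unpaired call was lost with normexp background correction, the paired call was lost without replicate 3, and with a filter that asked for all 8 arrays Spp1 was not tested. Mfge8, another αV ligand, differed by -0.39 (limma, adjusted p = 0.459), Cd209a, a relative of the human lectin DC-SIGN that binds ICAMs, by 1.00 (limma, adjusted p = 0.774), and F11r, a junction protein bound by LFA-1, by 0.39 (limma, adjusted p = 0.925). Cdh1, which encodes the αE ligand E-cadherin and was picked after its value was seen, differed by 0.23 and passed in neither fit (limma, paired adjusted p = 0.227).

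Of 40 genes that activate integrins or tie them to signalling and actin, 33 were tested. Without pairing 1 passed, as lower (Cd9), where 1.71% of all tested features passed. With the replicate block 4 passed, among them Cd82 as higher and Flna and Cd9 as lower, where 6.22% of all tested features passed. The median difference of the 33 was 0.07. Cd9, a tetraspanin that associates with β1 integrins, read -0.23, -0.05, -0.90 and -0.58 in Sca-1+ replicates 1 to 4, against 1.87, 1.22, 0.77 and 1.14 in Sca-1- replicates 1 to 4. The groups were fully apart, as for 6.95% of all tested features, with a difference of -1.69 ± 0.27 (SE, limma, adjusted p = 0.0190). It lost the unpaired call when Sca-1+ replicate 3 or Sca-1- replicate 2 was left out.

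Flna, the actin crosslinker filamin A that binds β tails in competition with talin, read 3.93, 3.87, 3.68 and 4.50 in Sca-1+ replicates 1 to 4, against 5.35, 4.90, 4.52 and 5.09 in Sca-1- replicates 1 to 4. The groups did not overlap, though the highest Sca-1+ and the lowest Sca-1- sample came close, and the difference was -0.97 ± 0.23 (SE, limma, adjusted p = 0.113, and 0.0233 paired). Cd82, a tetraspanin, read 4.68, 4.79, 4.97 and 4.95 in Sca-1+ replicates 1 to 4, against 4.13, 4.39, 4.09 and 4.50 in Sca-1- replicates 1 to 4. As with Flna, and with 6.95% of all tested features, these groups did not overlap. The difference was 0.57 ± 0.15 (SE, limma, adjusted p = 0.143, and 0.0395 paired). With replicate 4 left out of both groups, Flna and Cd9 still passed in the paired fit and Cd82 did not, and with replicate 1, 2 or 3 left out Cd9 did and Flna and Cd82 did not.

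**Figure D5:**
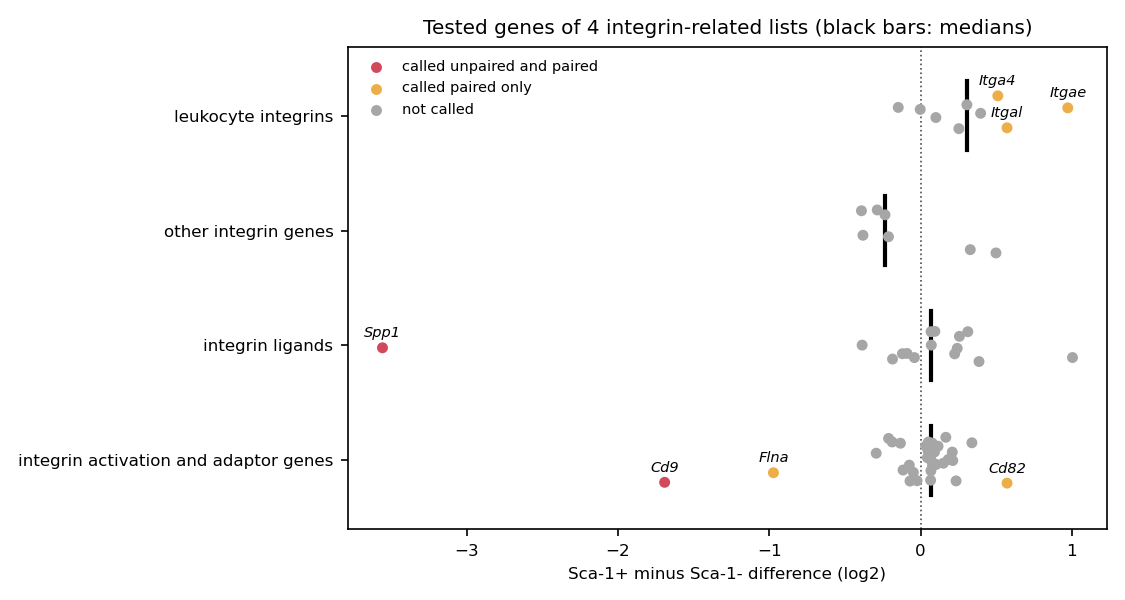
Sca-1+ minus Sca-1- difference (log2) of the tested genes in the 4 lists of integrin genes, ligands and activation genes, with the medians of all tested genes of a list as black bars; 1 activation gene is not shown. The 3 leukocyte integrins that passed in the paired fit lie above 0, as does the called activation gene Cd82. The called ligand Spp1 and the called activation genes Cd9 and Flna lie below 0.

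Other cell types were read through fixed marker lists, since cultures of bone marrow hold more than pDC. Over all tested features, 1.71% passed without pairing and 6.22% with it. Of 7 progenitor markers, all tested, 2 passed in both fits, as lower in Sca-1+: Cd93 (-1.98, limma, adjusted p = 0.00503) and Sox4 (-1.19, limma, adjusted p = 0.0155). Their summed signal was 13.2 to 20.6 times the 75th percentile in Sca-1+ and 22.5 to 35.4 times in Sca-1- samples. Among pDC markers, Irf7, Ccr9 and Tlr7 passed as higher in the paired fit, with differences of 0.94, 0.55 and 0.58. Of 10 T and NK cell markers, 4 were tested and Thy1 passed as lower (-1.80, limma, adjusted p = 0.0481). Cd5 (0.48), Cd3e (0.18) and Prf1 (-0.02) passed in neither fit. Cd3d, Cd3g, Klrb1c and Ncr1 were not well above background on any array. The list had sums of 13.3 to 15.2 in Sca-1+ and 10.8 to 16.9 in Sca-1- samples. No tested gene of the lists for B cells, basophils and mast cells, megakaryocytes and erythroid cells passed in either fit. The part of these marker differences in the integrin differences was not tested.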

How the data were processed

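Spot intensity was deposited by the authors for 8 single-colour arrays, made from 100 ng of RNA per sample with a low-input Cy3 kit per the labels, whose descriptions also name an amplified polyA RNA. Per the file headers, the linear intensity was extracted with Agilent Feature Extraction 10.7.3.1 and already background-corrected by that program, and probe positions are those of mm9. The authors' series value file holds log2 values with equal quartiles in all columns. Beyond the log2 scale, how it was made is not stated.

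Control and outlier spots were left out (105 to 162 outlier spots per array, 0 saturated), spots of a probe were averaged as log2 intensity, and each array's 75th percentile was subtracted. Of the probes, 26680 took a current name from their accession, 3017 from their symbol, and 25984 kept the one in the files. No updated name moved a member probe, and a member name was accepted from any file. A feature was read from its brightest probe and tested if well above background on at least 4 of 8 arrays, which left 19810.

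The comparison of Sca-1+ with Sca-1- pDC used R 4.3.3 with limma 3.58.1 and version 1.17.8 of data.table (lmFit and eBayes, two-sided), with Benjamini-Hochberg adjustment over all tested features and a threshold of 0.05, without the replicate number and with it as a block. The fit without the block was planned as the main one and that with it as an alternative, in which the numbers, which are also slides, form pairs. Deviations from group means correlated at 0.44, 0.43, 0.64 and 0.89 between samples of the same number. For 6 of 8 samples the highest correlation was with the sample of that number. Sca-1+ replicate 1 correlated higher, at 0.54, with a Sca-1- sample of another number. Whether replicates are separate cultures or mice is not stated in the labels, and p-values therefore measure only how far these samples scatter, which may be technical. The 4 arrays per group limit the precision. The fits were tested on simulated data.

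The integrins and gene lists were chosen with earlier results of these data known. Named genes are all 10 members with every probe, the called genes of the 3 integrin-related lists, otherwise up to 4 with the smallest p, and Ly6a. Marker genes are named beside the integrins they bear on. Some genes of the lists are counted but not reported here by name. For a bound on a fold, the mean of the bright group was set against the mean in the dim group of, per array, the higher of the dimmest signal well above background and the gene's own. Alternatives were other background correction, normalization, scaling, filters, probe rules, the authors' table and left-out samples. Whether probes lie in coding or untranslated sequence was not analysed here. Plots were made in matplotlib 3.10.9, with pandas 2.3.3, numpy 2.4.6 and Python 3.11.15.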

Additional observations from a re-analysis of the deposited data

Results flagged for a closer look

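In 44 groups of 4 samples, the highest or lowest sample was compared with the rest of its group, and 7 lay far from the others by Dixon's criterion. Chance alone marks about 1 in 20 such groups. Replicate 4 accounts for 5 of the 7: Itga4 at 3.67 in Sca-1- pDC, Itgal at 4.98 in Sca-1+ and 4.52 in Sca-1- pDC, and Itga10 at -1.44 in Sca-1- pDC were the highest of their groups, and Itgam at 3.96 in Sca-1- pDC was the lowest. These are main probes, and other probes of the same genes differed. On the second Itga4 probe, Sca-1- replicate 4 read -1.58, within the -1.81 to -1.16 of the others. On the upstream Itgal probe replicate 4 was the lowest of each group, at 1.11 in Sca-1+ and 0.65 in Sca-1- pDC. On the Itgam probe at base 3410, Sca-1- replicate 4 read -1.33, within the -1.63 to -1.32 of the others. Both samples of replicate 4 shared a slide, a scan day and an extraction protocol version that replicates 1 to 3 did not share. Cell type markers differed there as well. Every tested basophil and mast cell marker was lowest in replicate 4 in both groups. Mcpt8 read -4.27 in Sca-1+ and -4.09 in Sca-1- pDC, against 1.28 to 3.59 and 1.39 to 3.15 in replicates 1 to 3. Mpo and Clec9a were also lowest there in both groups, while Ccr9 and Ccr2 were highest. The part of any of these in the values was not tested. The other values marked by Dixon's criterion were Spp1 at -3.91 in Sca-1+ replicate 2, where it was not well above background, and F11r at -1.43 in Sca-1- replicate 2, both the highest of their groups.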

How the results depend on the processing

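Without pairing, 0 leukocyte integrins passed under each alternative run. With the replicate block 3 passed, and also 3 with quantile normalization, with scaling on probes detected on all arrays, with the mean of all probes and with the authors' table. It was 5 with normexp (Itgam, Itgal, Itga4, Itga6 and Itgae), 5 with the other probes of Itga6 and Itgam (those 2 as lower), 0 without a filter on dim probes and 0 to 2 when a replicate number was left out. The combinations with the block other than left-out replicate numbers, and the other probes for Itga6 and Itgam, were chosen after seeing the data. Across the 12 settings with the block, Itgae passed in 9, Itgal in 8 and Itga4 in 7, and their differences stayed positive in all 28 alternatives. These settings are not independent. The block, the filters and the other probes of Itga6 and Itgam leave the differences of these genes unchanged by construction. For them, the blocked fit with those other probes nearly repeats the first blocked fit and is counted among the passes.

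The median difference of the integrins was 0.046 with the mean of all probes, 0.10 with the other probes of Itga6 and Itgam, and 0.27 to 0.56 when 1 array was left out, highest without Sca-1- replicate 4. With the block it was 0.29 to 0.37 when a replicate number was left out. The direction of Itga6 turned with the mean of its probes (-0.15) and with its other probe (-0.69), and so did that of Itgam (-0.066 and -0.49). Leaving out 1 array gave 0.57 to 1.39 for Itgae (lowest without Sca-1- replicate 1), 0.36 to 0.82 for Itgal (lowest without Sca-1+ replicate 4), 0.42 to 0.68 for Itga4, 0.27 to 0.56 for Itga6, -0.30 to -0.046 for Itgav, -0.047 to 0.61 for Itgam, -0.050 to 0.32 for Itgb1, -0.067 to 0.61 for Itgb2 and -0.094 to 0.043 for Itgb7. Itgb7 was also positive with normexp (0.0057), quantile normalization (0.046), scaling on detected probes (0.0071) and the authors' table (0.044), and with the block and a replicate number left out it was -0.066 to 0.037, with 0.036 without replicate 1. The cause was not tested.

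Among ligands, 0 passed with normexp and 0 with the filter asking for all arrays, 2 with normexp and the block, 1 when an array was left out, and 0 to 2 with the block and a replicate number left out. Among activation genes, the count was 4 with the block, 0 without a filter, 0 to 2 when an array was left out and 1 to 3 with the block and a replicate number left out. With the block it was 5 with normexp, 3 with the mean of all probes, and 4 with quantile normalization, scaling on detected probes, the authors' table or the other probes. Of the other integrins, 1 passed with normexp and the block (Itgb3). Over all features, 339 passed without pairing and 1232 with it. The counts without pairing were 182 without a filter and 163 to 463 when an array was left out. With the block they were 2128 with normexp, 312 without a filter and 292 to 941 when a replicate number was left out. Itga5, tested only without a filter, differed by -0.52 (limma, adjusted p = 1.00). Low signal limits what can be read for Itga5, for Spp1 in Sca-1+ pDC and for the dim Itgam probe.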
